A study of Mus musculus with 2 samples.

Results

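The genes of protein entry into the endoplasmic reticulum (ER) and of vesicle transport between the ER and the Golgi apparatus were compared between whole mouse blastocysts and isolated inner cell masses (ICMs). The members were all genes whose symbol begins with Sec and a digit, Copa, Copb, Cope, Copg or Copz, Trappc, Tmed, Ssr, Spcs, Srp and a digit, or Srpr. This rule took 72 of the 19559 genes of the table, and it used names only, no measured value. They comprise 24 genes of ER translocation, 11 of the COPII coat, 8 of the COPI coat, 10 p24 cargo receptor genes, 10 TRAPP tether genes, 3 Sec22 SNARE genes and 6 genes that share only the name, Sec1 and the Sec14-like genes. There were 2 libraries, 1 of whole blastocysts and 1 of ICMs, both at embryonic stage E3.75. All embryos came from B6CBAF1 mothers mated with CD-1 fathers, carried no engineered allele named in the labels and received no agent named there. The ICMs had been freed of their outer layer by immunosurgery, in which antibody and complement lyse the trophectoderm. The sources used here do not say how many embryos were pooled. A whole blastocyst contains its own ICM, so the comparison is of a whole with one of its tissues. If both held the same ICM tissue, a ratio of ICM to whole blastocyst could not exceed 1 over the ICM's RNA share. That share was not measured, so whether the large ratios below pass this limit was not tested. They are given as values of these libraries only.

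Proteins that are secreted or built into membranes enter the ER through the Sec61 channel. The signal recognition particle (SRP) binds a signal sequence as it leaves the ribosome and docks at its receptor in the ER membrane, the TRAP complex assists the channel, and signal peptidase cuts the signal off. COPII coats then bud vesicles from the ER, COPI coats return proteins from the Golgi, p24 proteins select cargo, TRAPP complexes tether vesicles and Sec22 proteins help them fuse. In the blastocyst the trophectoderm is a transporting epithelium, while primitive endoderm cells of the ICM secrete basement membrane proteins.

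The marker genes went with the labels. Of 9 ICM markers, 8 stood at least 2-fold above the whole blastocyst in the ICM library, among them the primitive endoderm genes Pdgfra (335 and 8399 reads), Gata4 (6 and 320) and Sox17 (13 and 155). The exception was Sox2 (ratio 1.46). All 7 trophectoderm markers were at least 2-fold lower, and their summed RPKM in the ICM was 0.0294 of that in the whole blastocyst. That sum is led by Krt18, without which it was 0.0879, and Cdx2, Eomes, Gata3, Krt8 and Tead4 had ratios of 0.0582 to 0.118. Elf5 had 77 and 0 reads, and the other 6 still had ICM reads. The part of these cell types in the members' differences was not tested. Of 8 genes listed as markers of blood, cumulus and other cells, Cd68 (22 and 2 reads) and Pecam1 (10 and 220 reads) passed the filter on low values. Hbb-b1, Col1a1, Amh and Inhba had no read. The cells behind the Pecam1 reads were not identified, and its reads are not taken as a sign of other cells. The whole-blastocyst library held 9271198 reads on the listed genes and the ICM library 4125479. With 1 library of each kind there is no spread between replicates and no test of a condition, so each ratio carries an exact 95% counting interval that describes these libraries alone. Reads of amplified cDNA are not independent molecules, and the intervals cover counting error only.

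What a value measures was worked out from the table. RPKM is a gene's reads divided by its length in kilobases and by a library total. Read count and RPKM together gave a length of a whole number of bases for each of the 9346 genes with at least 20 whole-blastocyst reads, to within 0.000103 of a base. That length lay within 3 bases of a last exon in GENCODE for 62.7% of 7950 genes. It lay that close to a first exon for 1.23%, to a whole transcript for 1.22% and to a coding sequence for 1.28%. For the genes that matched a last exon, the length behind RPKM is thus that of this exon. Among the members, the lengths ran from 131 bases for Cope to 8405 for Ssr1, and 39 of the 65 members with a read matched a last exon. The sources used here do not say whether reads were counted in the last exon only. Both libraries used the same length for a gene, so ratios of RPKM between libraries do not depend on it. The order of genes within a library does depend on it, as do the filter and the differences with 1 added that are defined below.

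Differences between the libraries are given as the log2 ratio of ICM to whole-blastocyst RPKM after adding 1 to each, for genes at 1 RPKM or above in either library. The added 1 makes differences of low genes smaller than their RPKM ratios. Values are given in the order whole blastocyst, ICM. Of the 72 members, 59 passed this filter and 13 did not. Of the 59, 20 were at least 2-fold lower in the ICM (33.9%, against 44% of all 8981 genes), 3 were at least 2-fold higher (5.08%, against 8.96%) and 36 were within 2-fold. The median difference was -0.61, compared with -0.84 over all genes. Most genes lay lower in the ICM. Differences called centred are therefore taken from the median of 3013 well-measured genes (at least 5 RPKM in each library), which was -0.66. Centred, 11 members were at least 2-fold lower (18.6%, against 20.5%) and 6 at least 2-fold higher (10.2%, against 16.9%), and 31 of the 59 lay above the centre (52.5%, against 43.3%). With this filter, the members had a smaller share than all genes in the 4 counts of 2-fold differences. They had a larger share above the centre, and neither was tested. Without the filter, 20 of the 72 were at least 2-fold lower as deposited (27.8%, against 20.2% of all genes). The number at least 2-fold higher was 3 (4.17%, against 4.12%), so the comparison with all genes depends on the filter. In a bulk library, fewer cells of a type and less RNA per cell cannot be told apart.

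**Figure D1:**
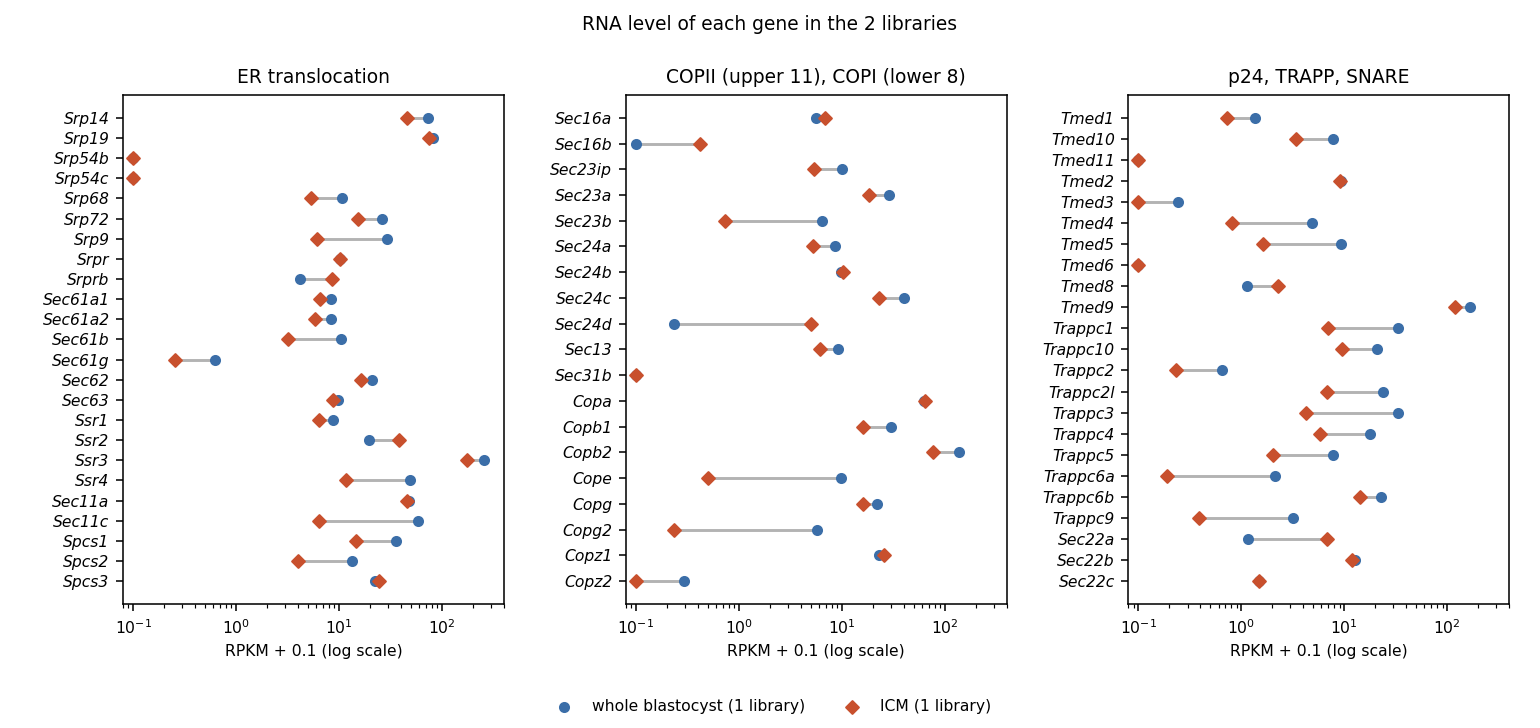
RPKM plus 0.1 on a log axis for each member except the name-only matches, with a circle for the whole-blastocyst library and a diamond for the ICM library (1 library each, no error bars). Most pairs lie close together, and the long bars belong to genes such as Sec24d (0.136 and 4.92 RPKM), Sec11c (58.0 and 6.29 RPKM) and Copg2 (5.67 and 0.137 RPKM).

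As deposited, the summed RPKM of translocation, COPII and COPI was lower in the ICM, but less so than that of all genes. RPKM divides by library totals, of which the listed genes' reads made 20.6% (whole blastocyst) and 10.9% (ICM). The direction is thus tied to this scaling. Scaled to the listed gene reads instead, the median differences of these machineries were 0.36, 0.28 and 0.10, against -0.13 over all genes. The 24 translocation genes summed to 804.003 RPKM in the whole blastocyst against 531.2 in the ICM (ratio 0.661). The ratio of the summed RPKM was 0.683 for the COPII genes (118.4 and 80.9) and 0.684 for the COPI genes (291.4 and 199.3), compared with 0.514 over all genes. Each sum has a leading gene, Ssr3 (32.1% of the whole-blastocyst sum), Sec24c (34.1%) and Copb2 (46.9%). Without it the ratios were 0.652, 0.742 and 0.788, so the closeness of the 3 sums rests on these genes. Among 21 measured translocation genes, 6 passed 2-fold downward (28.6%, against 44% of all genes) and 0 upward (against 8.96%), with a median difference of -0.48. Among 9 COPII genes, 1 was lower and 1 higher (11.1% each), with a median of -0.61. Among 7 COPI genes, 2 were lower (28.6%) and 0 higher, with a median of -0.81. Centred, the medians of the 3 machineries were 0.18, 0.048 and -0.15. With 1 library a group, the difference between the machineries was not tested.

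**Figure D2:**
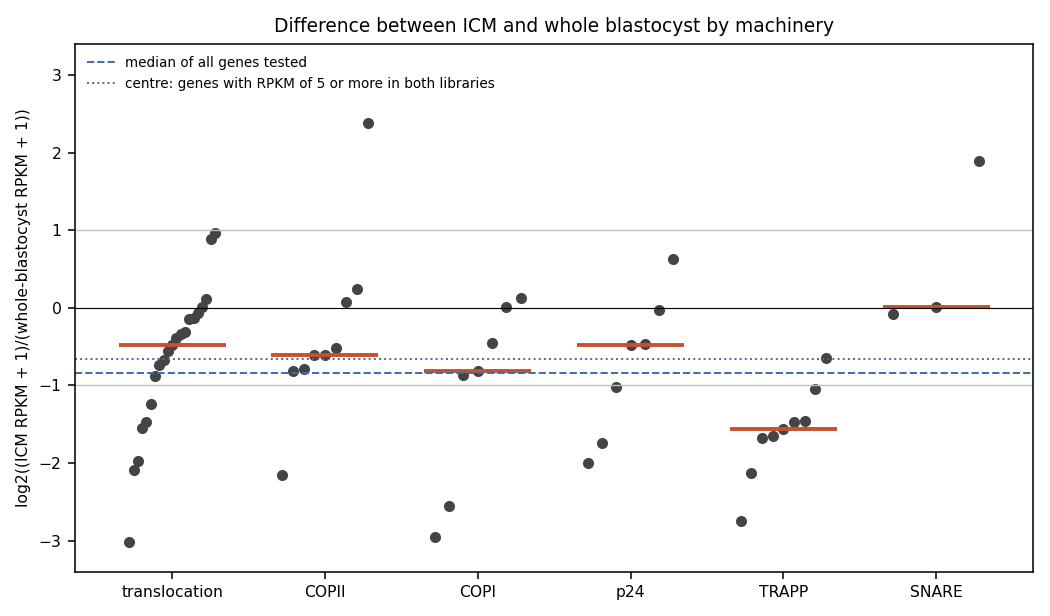
Each point is the log2 difference of 1 measured gene (vertical axis), grouped by machinery (horizontal axis), with a bar at the median of each group, a dashed line at the median of all genes tested (-0.84), a dotted line at the centre (-0.66) and grey lines at the 2-fold marks of 1 and -1. The TRAPP genes have a median of -1.56, while the medians of translocation and COPII lie at -0.48 and -0.61.

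In the Sec61 channel the genes of the pore and its helpers were within 2-fold. Sec61a1, which encodes the main pore subunit, stood at 8.24 and 6.44 RPKM (ratio 0.782, 0.689 to 0.887). Its paralog Sec61a2 had 8.32 and 5.69 (ratio 0.684, 0.577 to 0.809). The last exon of Sec61a2 shares 909 bases with transcripts of the neighbour Nudt5, so its reads are uncertain. Sec62 and Sec63, membrane partners of the channel that help precursors enter, had 20.6 and 16.1 (ratio 0.781, 0.734 to 0.831) and 9.69 and 8.63 (ratio 0.891, 0.826 to 0.961). Centred, these 4 genes lay 0.18 to 0.51 above the centre. The small subunits stood apart or had too few reads. Sec61b had 119 and 30 reads, RPKM values of 10.2 and 3.07, and was 3.34-fold lower in the ICM (2.22 to 5.17). Centred, its difference was -0.81, which is within 2-fold. Sec61g, with 4 and 1 reads, was under the filter, and its last exon is identical to a stretch of the gene model Gm10177.

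The SRP protein genes had ratios under 1, of differing size. Srp19, which binds the SRP RNA early in assembly, stood at 81.5 and 74.3 RPKM (ratio 0.911, 0.850 to 0.977). Srp14, which with Srp9 forms the pair that slows translation, had 73.4 and 45.8 (ratio 0.623, 0.572 to 0.679). Its partner Srp9 had 29.2 and 6.06 and was 4.81-fold lower (4.20 to 5.53), also at least 2-fold lower when centred. The genes of this heterodimer thus had ratios of 0.623 and 0.208. Srp72 and Srp68, which bind each other at the other end of the particle, had 26.3 and 15.3 (ratio 0.584, 0.541 to 0.630) and 10.5 and 5.25 (ratio 0.501, 0.412 to 0.607). Srp54b and Srp54c had no read in either library.

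Of the 2 SRP receptor genes, 1 was level and 1 was higher in the ICM. Srpr, the subunit that binds the SRP, stood at 10.01 and 10.1 RPKM (ratio 1.01, 0.880 to 1.15). Srprb, the subunit that anchors it in the membrane, had 4.06 and 8.38, 2.07-fold higher in the ICM (1.83 to 2.33), a difference of 0.89 that centring brings to 1.55. With the 1 added to its low level, the uncentred difference stays short of the 2-fold mark. A stretch of 214 bases of its last exon is also in the gene model Gm20425.

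The 4 TRAP genes went in different directions although their products form 1 complex. Ssr3, the gamma subunit, led all members with 258.5 and 175.4 RPKM (ratio 0.679, 0.666 to 0.692), above 99.2% and 99.6% of all genes tested. It alone made 32.1% and 33.0% of the summed RPKM of translocation. Ssr2, the beta subunit, had 19.3 and 38.5 and was 2.001-fold higher in the ICM (1.78 to 2.25), which is a difference of 0.96, just within the 2-fold mark. Ssr1, the alpha subunit, had 8.57 and 6.30 (ratio 0.735, 0.695 to 0.777). Ssr4, the delta subunit, had 48.7 and 11.6 and was 4.19-fold lower (3.26 to 5.45). The genes of the complex thus span differences from 0.96 for Ssr2 to -1.98 for Ssr4.

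In signal peptidase, 3 of 5 genes were at least 2-fold lower (60%, against 44% of all genes), and 1 of 5 when centred (20%, against 20.5%). The catalytic subunit has alternative forms, Sec11a and Sec11c. Sec11a stood at 47.6 and 45.4 RPKM (ratio 0.952, 0.871 to 1.04). Sec11c had 58.0 and 6.29, from 514 and 47 reads, and was 9.21-fold lower (6.83 to 12.7). Sec11c thus led the pair in the whole blastocyst, with 54.9% of its summed RPKM, and made 12.2% of it in the ICM. The noncatalytic subunits differed too. Spcs1 had 35.4 and 14.4 (2.46-fold lower, 2.10 to 2.89), Spcs2 had 13.3 and 3.85 (3.44-fold lower, 3.06 to 3.89) and Spcs3 had 22.3 and 24.3 (ratio 1.09, 1.03 to 1.15). The last exon of Spcs2 has a stretch of 187 bases that is 96.8% identical to a pseudogene.

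The COPII coat is built from an inner layer of Sec23 and Sec24, which takes up cargo, and an outer layer of Sec13 and Sec31. The 4 Sec24 genes encode cargo adaptors of differing selectivity, and their balance differed between the libraries. Sec24d rested on 5 whole-blastocyst and 152 ICM reads. Its RPKM of 0.136 and 4.92 makes it 36.1-fold higher in the ICM (15.1 to 113), and at 2.38 it had the highest difference among the members. In the whole blastocyst it stood above 3.38% of the genes tested and in the ICM above 61.3%. Sec24c, its nearest relative, was the most abundant Sec24 gene, with 40.3 and 23.0 (ratio 0.569, 0.529 to 0.613). The other pair, Sec24a and Sec24b, had 8.45 and 5.19 (ratio 0.614, 0.555 to 0.679) and 9.77 and 10.3 (ratio 1.06, 0.905 to 1.23). Of the summed Sec24 RPKM, Sec24d made 0.232% in the whole blastocyst, against 11.3% in the ICM, and Sec24c made 68.7% and 52.9%.

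Sec23, the partner of Sec24 that acts on the GTPase of the coat, came mostly from Sec23a. Sec23a stood at 28.7 and 18.5 RPKM (ratio 0.643, 0.599 to 0.690). Sec23b had 6.27 and 0.635, from 129 and 11 reads, and was 9.88-fold lower in the ICM (5.34 to 20.3), the only COPII gene at least 2-fold lower. Its share of the summed Sec23 RPKM was 17.9% and 3.33%. Sec13, a shared subunit of the outer coat and of the nuclear pore, had 9.08 and 6.03 (ratio 0.664, 0.510 to 0.860). Sec31b had no read in either library, and Sec31a was not analysed here. Sec16a, the scaffold of ER exit sites, had 5.55 and 6.76 (ratio 1.22, 1.06 to 1.41). Sec16b had 0 and 14 reads, under the filter. With a floor of 3 whole-blastocyst reads in place of 0, it was 5.54-fold higher in the ICM. The exact lower limit of its ratio was 3.94. Sec23ip, a phospholipase-like partner of Sec23, had 10.1 and 5.29 (ratio 0.524, 0.392 to 0.696).

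The COPI coat is a single complex, and the gene of its delta subunit, Arcn1, falls outside the naming rule. Copa, the alpha subunit, stood at 63.4 and 63.9 RPKM (ratio 1.01, 0.941 to 1.08). Copz1, the small zeta subunit, also stayed level, with 23.2 and 25.4 (ratio 1.10, 1.01 to 1.19). Copb2 and Copb1, the 2 beta subunits, had 136.7 and 77.4 (ratio 0.567, 0.524 to 0.612) and 30.3 and 16.1 (ratio 0.531, 0.453 to 0.622). Copg, the main gamma subunit (current symbol Copg1), had 22.1 and 15.9 (ratio 0.720, 0.661 to 0.784), and Arcn1 14.2 and 9.95 (ratio 0.698, 0.635 to 0.767). Against this group stood Cope and Copg2. Cope, the epsilon subunit that steadies alpha-COP, had 58 and 2 reads, RPKM values of 9.84 and 0.403, and was 24.4-fold lower (6.47 to 206.5). Copg2, the second gamma subunit, had 147 and 3 reads, RPKM values of 5.67 and 0.137, and was 41.3-fold lower (13.9 to 202.5). The last exon of Copg2 overlaps the gene Mest by 54 bases, and that of Copg shares 223 bases with the gene model Gm26636. Copz2 had 3 and 0 reads.

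Promoters of the members were searched for 3 short motifs of the ER stress response in RefSeq windows from 250 bases before to 50 after the start of the gene (assembly GRCm38.p6, on both strands). Windows were given for 59 of the 72 genes, 63 in all. The ER stress element, CCAAT and CCACG with 9 bases between them, was in none of the 63 and in 0.119% of all 32851 windows. Its second form, ATTGG and CCACG with 1 base between them, was in none and in 0.0365%. The unfolded protein response element core, TGACGTG, was in 6 of the 63 (9.52%) and in 2.01% of all windows. The motifs may overlap one another, which did not occur among the members. The 6 genes were Copb1, Copb2, Sec16b, Sec23a, Sec24d and Srpr. In Copb2 and Sec23a the match reached or lay past the start and is not shown. The matches upstream of the start are printed with up to 20 bases on each side, ending at the start, with the motif in capitals, because they include Sec24d, the member with the highest difference. The files use mm9, so the windows served for sequence only. In Copb1 the motif is on the strand opposite to the gene and reads CACGTCA.
Sec24d, chr3:123267450-123267495, plus strand: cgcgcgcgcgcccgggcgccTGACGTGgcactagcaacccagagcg
Sec16b, chr1:157506732-157506778, plus strand: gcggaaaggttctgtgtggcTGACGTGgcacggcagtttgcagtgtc
Srpr, chr9:35211170-35211202, plus strand: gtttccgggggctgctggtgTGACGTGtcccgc
Copb1, chr7:114254681-114254727, minus strand: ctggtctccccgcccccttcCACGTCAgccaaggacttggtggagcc
Of these, Sec24d and Sec16b had more reads in the ICM (5 and 152, 0 and 14). Srpr was level (480 and 407 reads), and Copb1 (516 and 231 reads), Copb2 (2030 and 969) and Sec23a (2198 and 1191) had ratios of 0.531 to 0.643. As deposited, the ratios of the genes with a match thus lay on both sides of 1. Centred, the differences were 3.04 for Sec24d, 1.06 for Sec16b (under the filter) and 0.67 for Srpr. They were 0.048 for Sec23a, -0.15 for Copb2 and -0.21 for Copb1. A link between the motif and the differences was not tested. A match of letters is a description of the window and not a bound site.

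Balances within paralog pairs do not depend on the scaling between libraries or on gene length. Of 9 pairs with both genes in the table, 7 had reads of both genes in both libraries. The ratio of Sec11a to Sec11c reads was 8.76 times as high in the ICM as in the whole blastocyst (6.40 to 12.2). It was 6.35 times as high for Sec23a to Sec23b (3.42 to 13.1) and 29.7 times as high for Copg to Copg2 (9.92 to 146). In these 3 pairs the gene that gained share was the one within 2-fold between the libraries. For Sec24d to Sec24c the ratio was 63.3 times as high (26.4 to 198) and for Sec24b to Sec24a 1.72 times (1.43 to 2.07). Trappc6b to Trappc6a gave 14.2 times (2.31 to 583), resting on 1 ICM read of Trappc6a. The pore pair Sec61a1 to Sec61a2 had a ratio of 1.14 (0.926 to 1.41), an interval that holds 1.

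**Figure D3:**
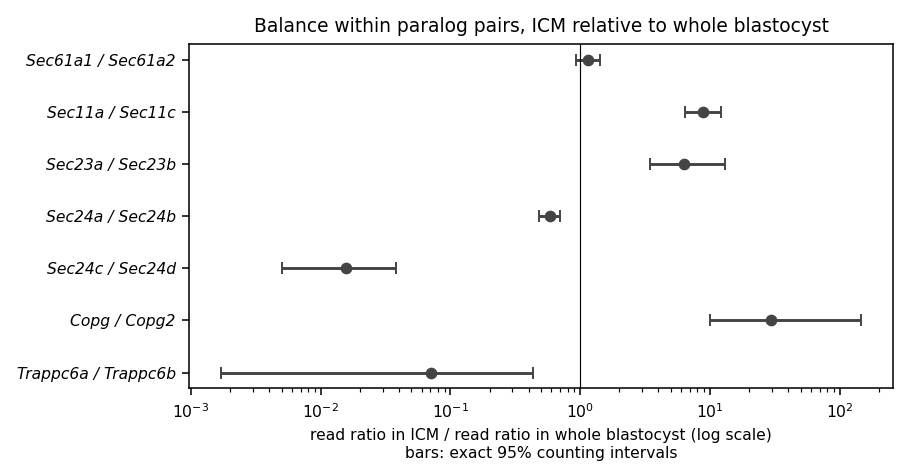
For 7 paralog pairs, the ratio of reads of the first gene to the second in the ICM library divided by the same ratio in the whole-blastocyst library, on a log axis, with exact 95% counting intervals as bars. Sec24c to Sec24d lies far to the left at 0.0158 and Copg to Copg2 far to the right at 29.7, while Sec61a1 to Sec61a2 straddles 1.

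The p24 cargo receptors, membrane proteins that cycle between ER and Golgi, had 3 of 7 measured genes past 2-fold downward and 0 upward (42.9% and 0%, against 44% and 8.96% of all genes), with a median of -0.47. Tmed9 was the most abundant, at 167.4 and 120.2 RPKM (ratio 0.718, 0.690 to 0.747), and made 83.4% and 87.4% of the summed RPKM of the group. Tmed2, the single beta-class member, was the nearest to no difference, with 9.23 and 8.99 (ratio 0.974, 0.862 to 1.10). Tmed10, the delta-class member, had 7.71 and 3.29 (2.34-fold lower, 2.08 to 2.65), and 122 bases of its last exon are 99.2% identical to a pseudogene. Tmed5, of the gamma class, had 9.11 and 1.53 (5.94-fold lower, 5.08 to 6.98). Tmed4, of the alpha class like Tmed9 and named after its values were seen, had 4.73 and 0.704 (6.71-fold lower, 4.55 to 10.2). Tmed1 had 1.25 and 0.626, and Tmed8 had 1.03 and 2.15 (ratio 2.08, 1.80 to 2.40). Tmed6 and Tmed11 had no read, Tmed3 had 5 and 0 reads, and Tmed7 was not analysed here.

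The TRAPP genes, whose products tether vesicles at the Golgi and act on Rab GTPases, had the lowest median difference of the groups, which was not tested. Their 9 measured genes included 8 at least 2-fold lower in the ICM (88.9%, against 44%) and 0 higher, with a median of -1.56. Their summed RPKM was 164.03 against 49.3 (ratio 0.301). Trappc3, a core subunit, had 33.3 and 4.13 and was 8.08-fold lower (6.67 to 9.86). Trappc1, another core subunit, had 33.1 and 6.78 (4.88-fold lower, 3.90 to 6.16). Trappc2l had 23.5 and 6.66 (3.52-fold lower, 2.58 to 4.90) and Trappc5 7.59 and 1.91 (3.97-fold lower, 3.30 to 4.81). These 4 genes shared the direction. The others of the 8 were Trappc4 (17.8 and 5.76), Trappc10 (20.5 and 9.43), Trappc9 (3.07 and 0.292, from 75 and 6 reads) and Trappc6a (2.01 and 0.0882, from 27 and 1 reads). Trappc6b alone stayed within 2-fold, with 22.7 and 14.2 (ratio 0.624, 0.543 to 0.717). Trappc2 had 10 and 2 reads. Centred, 3 of the 9 were at least 2-fold lower (33.3%, against 20.5%). Of 4 further subunits that the table lists under older symbols, Trappc8 (55 and 3 reads) and Trappc11 (957 and 256 reads, 3.15-fold lower, 2.74 to 3.63) were at least 2-fold lower, and Trappc12 (206 and 100 reads) and Trappc13 (145 and 154 reads) were within 2-fold.

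Among the Sec22 genes, Sec22b, the SNARE that serves traffic between ER and Golgi, stood at 12.6 and 11.8 RPKM (ratio 0.937, 0.835 to 1.05). Sec22c had 1.38 and 1.40 (ratio 1.01, 0.762 to 1.34). Sec22a, a less studied relative, had 1.07 and 6.68, from 152 and 800 reads, and was 6.25-fold higher in the ICM (5.25 to 7.48). Its share of the summed Sec22 RPKM was 7.10% and 33.6%. The third member at least 2-fold higher was Sec14l1, which shares only the name, with 32 and 88 reads and RPKM values of 1.52 and 4.97 (ratio 3.26, 2.16 to 5.06). Sec24d, Sec22a and Sec14l1 were at least 2-fold higher under each of the 5 scalings compared, and 10 members were at least 2-fold lower under each. These are 5.08% and 16.9% of the 59 members, against 8.96% and 18.6% of all genes tested. All 805 genes at least 2-fold higher as deposited stayed so under each scaling. For the higher members the comparison thus adds nothing to the deposited values. The 10 were Srp9, Ssr4, Sec11c, Sec23b, Cope, Copg2, Tmed4, Tmed5, Trappc1 and Trappc3.

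**Figure D4:**
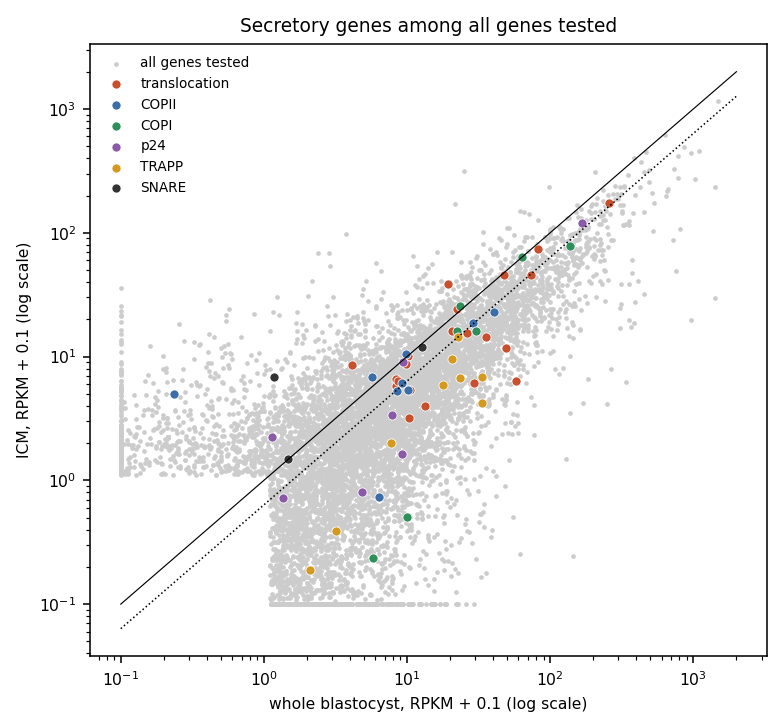
RPKM plus 0.1 in the ICM library against the whole-blastocyst library, both axes logarithmic, with all genes tested in grey, measured members coloured by machinery, a solid line of equal level and a dotted line at the centre. Most translocation, COPII and COPI genes lie between or near the lines, Sec24d (0.136 and 4.92) and Sec22a (1.07 and 6.68) lie above them and most TRAPP genes below.

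The members' differences varied with the length behind RPKM. Of 4 measured members under 250 bases (Cope, Ssr4, Sec11c and Trappc2l), 4 were at least 2-fold lower, as were 6 of 12 from 250 to under 500 bases and 3 of 12 at 2000 bases or longer. Over all genes these shares were 51.7%, 47.5% and 38.8%. The Spearman correlation of length and difference was 0.41 across the 59 members, which share their libraries and are not independent, and 0.07 across all 8981 genes. The TRAPP genes had a median length of 542 bases, the COPI genes 576 and the translocation genes 1065, compared with 1095 over all genes. The part of length in these differences was not tested.

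Other genes of the same routes, listed by their known roles, had members on both sides. For translocation and glycosylation, 23 were measured, of which 8 passed 2-fold downward and 1 upward (34.8% and 4.35%, against 44% and 8.96%), with a median of -0.68. Krtcap2, a subunit of oligosaccharyltransferase, had 283 and 12 reads and was 19.9-fold lower (11.2 to 38.9). Emc4 and Emc7, subunits of the ER membrane insertase listed under older symbols, stood 3.99-fold (3.24 to 4.95) and 3.76-fold (3.29 to 4.31) below the whole blastocyst. Magt1, another oligosaccharyltransferase subunit, was 3.36-fold lower (2.85 to 3.97). The higher gene was Tram2 (20 and 56 reads), a channel-associated protein known from collagen synthesis, at 3.32-fold (1.96 to 5.85). It was named after its values were seen.

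For COPII budding and cargo, 22 were measured, with a median of -0.49 (against -0.84 over all genes). Of these, 6 passed 2-fold downward and 0 upward (27.3% and 0%, against 44% and 8.96% of all genes). Cnih, a cargo receptor of the cornichon family, was 6.36-fold lower (5.17 to 7.88), the SNARE gene Bet1 3.79-fold (3.18 to 4.53), the lectin gene Lman2 3.47-fold (3.04 to 3.98) and Sar1a, the GTPase that starts the coat, 2.94-fold (2.64 to 3.28). The paralog Sar1b, also named after its values were seen, stood at 61.6 and 43.1 RPKM (ratio 0.699, 0.645 to 0.758). For COPI and Golgi tethering, 22 were measured, with a median of -0.63. Of these, 9 were lower (40.9%, against 44% of all genes) and 3 higher (13.6%, against 8.96%). Kdelr3, a receptor that returns ER proteins from the Golgi, had 1.73 and 18.3 and was 10.6-fold higher (7.92 to 14.4). The other 2 higher genes, the SNARE genes Use1 and Bet1l, had 58 and 122 and 45 and 152 reads. Uso1, a tether of COPII vesicles, was 5.53-fold lower (4.49 to 6.87) and Rint1 6.19-fold lower (4.73 to 8.22).

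For ER folding and the unfolded protein response, 23 were measured, with a median of -0.59 (against -0.84 over all genes). Of these, 9 were lower (39.1%, against 44% of all genes) and 1 higher (4.35%, against 8.96%). Hspa5, the chaperone BiP and a standard target of the response, stood at 162.8 and 156.6 RPKM (ratio 0.962, 0.928 to 0.998). Sdf2l1 was 5.11-fold (4.36 to 6.02), Ddit3 4.61-fold (3.749 to 5.71) and Creld2 2.95-fold (2.24 to 3.92) lower. The higher gene was Creb3l2, a membrane-bound transcription factor known to act on genes of COPII transport in secreting cells, with 78 and 1209 reads and RPKM values of 1.17 and 21.6 (18.4-fold higher, 14.6 to 23.4).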

How the data were processed

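The authors deposited 1 table with raw read counts and RPKM values per gene for the 2 libraries. Per the labels' protocols, RNA was isolated with PicoPure columns, amplified with NuGEN Ovation chemistry and sequenced as SOLiD fragment libraries. Per the submitters' processing notes, reads were placed on mm9. The sources used here give no aligner, annotation, strand use or handling of multiply mapping reads.

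The totals behind RPKM, recovered from counts and RPKM, were 45011450 reads (whole blastocyst) and 37920430 reads (ICM), of which the listed reads made 20.6% and 10.9%. Recovered lengths were compared with GENCODE M21 exon lengths (GRCm38, lengths only). The 39 members whose last exon was identified were searched against GENCODE transcripts with blastn 2.17.0 for stretches of at least 50 bases at 95% identity or more, and 9 had one in another gene. Genes with such stretches, and the other members, which were not searched, may share reads with copies.

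Ratios carry exact conditional (Clopper-Pearson) 95% intervals from the counts, and paralog balances exact conditional odds ratio intervals (scipy 1.17.1, Python 3.11.15). Computations were tested on simulated Poisson counts. Genes named one by one were all measured genes of the translocation, COPII and COPI groups. From the other groups and the companion lists they were up to 4 genes with the largest difference at an RPKM of 5 or more, plus the gene nearest to 0 in the other groups, and both genes of each paralog pair. Tmed1, Tmed4, Tmed8, Sec22c, Sec14l1, Sec14l4, Trappc4, Trappc9, Trappc10, the TRAPP genes under older symbols, Tram2, Sar1b, Arcn1, Use1, Bet1l and Hspa5 fall outside this rule and were named after their values were seen. The members and lists were chosen with earlier results of these data known. Of the companion lists, 7, 0, 0 and 1 genes were found under older symbols, and 3, 1, 1 and 0 were not matched. RefSeq proteins were not used here. One gene that the naming rule took from a companion list is not reported here.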

Additional observations from a re-analysis of the deposited data

How the results depend on the processing

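The counts depended on the scaling between the libraries. The number of members at least 2-fold lower was 20 as deposited, 11 centred, 13 as TPM, 12 after quantile normalization and 12 scaled to the listed gene reads. In the same order this is 33.9%, 18.6%, 22.03%, 20.3% and 20.3% of the 59, against 44%, 20.5%, 29.5%, 21.1% and 25.7% of all genes. The number at least 2-fold higher was 3 as deposited, 6 centred, 10 as TPM, 7 after quantile normalization, 9 scaled to the listed gene reads and 1 with a filter at an RPKM of 5. This is 5.08%, 10.2%, 16.9%, 11.9%, 15.3% and, of 49 genes, 2.04%, against 8.96%, 16.9%, 22.02%, 18.7%, 19.1% and 6.80% of all genes. Translocation genes at least 2-fold lower numbered 6 as deposited and 3 under each of these 4 scalings. The number for COPII was 1 under every alternative run. COPI had 2, and 1 without genes that share a stretch with another gene, an alternative chosen after seeing the data, since that leaves out Copg2. Under the 4 scalings translocation had 14.3% and COPII 11.1% lower, below the shares of all genes given above. COPI had 28.6%, 2 of 7 genes. This was below all genes as deposited and as TPM. It was above them centred, after quantile normalization and scaled to the listed gene reads, which was not tested. As deposited but without the filter on low values, translocation and COPI each had 25% lower and COPII 9.09%, against 20.2% of all genes.

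The sign of the medians turned with scaling. The median over all members, -0.61 as deposited, was 0.047 centred, 0.25 as TPM, 0.18 after quantile normalization and 0.20 scaled to listed reads. In the same order translocation gave 0.18, 0.40, 0.39 and 0.36, and COPII 0.048, 0.32, 0.20 and 0.28. COPI gave -0.15 centred, then 0.14, 0.21 and 0.10. The medians of all genes under these scalings were -0.18, -0.11, -0.08 and -0.13, so those of the members stayed above them. Without the filter on low values, the median as deposited was -0.47 for the members, below the -0.016 of all genes. Counting only genes whose exact interval lay wholly beyond 2-fold gave 20 lower and 3 higher members. The 20 were not all the same genes. Trappc10 dropped out, with an upper limit of its ratio at 0.511. The name-only gene Sec14l4 entered (116 and 16 reads, 6.11-fold lower, 3.61 to 11.0). In the main count, leaving out the genes that share only the name, also chosen after seeing the data, gave 20 and 2. No paired analysis was possible because there is 1 library a group. The depth limits Sec61g, Sec16b, Copz2, Tmed3 and Trappc2, with at most 14 reads in either library. It also limits the size of the ratio of Cope, Copg2, Trappc6a and Trappc8, with 1 to 3 ICM reads, and of Trappc9, with 6. The same holds for Sec24d, with 5 whole-blastocyst reads, and so for its balance with Sec24c.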
